A study of Capra hircus with 72 samples.

Results

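SH2D4B, TBX19, ATP4A, LSM1, C4orf33, RNF141, CCL14 and ALDH1L2 are 8 genes whose RNA lay on the same side of room air in every brain region of goats that breathed extra CO2. They are 8 of the 21343 genes in the deposited table, matched by symbol. They were selected on the difference between hypercapnia and room air in these same libraries: an earlier look saw each shift in one direction under mild or moderate hypercapnia in all 4 regions. The contrasts with room air that follow therefore describe the genes and do not test them. Their working name calls them nonvascular; none is on the endothelial or pericyte marker lists used here, and whether vessels were their source in this tissue was not tested.

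The libraries came from the brain of female goats (Capra hircus). The cortical region was the medial prefrontal cortex (mPFC). In the brainstem the retrotrapezoid nucleus (RTN), the nucleus of the solitary tract (NTS) and the ventral respiratory column (VRC) were taken. Each region was sampled under 3 conditions with 6 replicates per group, which gives 12 groups and 72 libraries. Room air animals were kept for 14 days, mild chronic hypercapnia was 14 days at 6% CO2, and moderate chronic hypercapnia was 7 days at 6% CO2 followed by 7 days at 8%. The series description gives 6 animals per condition as the source of all regions. Neither it nor the labels name an allele, an agent other than CO2, or an age, and they do not say that a replicate number stands for an animal.

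Chronic hypercapnia is a lasting rise of blood CO2, which lowers the pH of blood and brain fluid. Neurons of the retrotrapezoid nucleus sense CO2 and protons, the ventral respiratory column generates and shapes the breathing rhythm, and the nucleus of the solitary tract receives input from the peripheral chemoreceptors. The medial prefrontal cortex lies outside this brainstem network. The 8 genes belong to no common pathway. TBX19 is a T-box transcription factor that drives the pro-opiomelanocortin gene in pituitary corticotrophs, and SH2D4B is an adaptor with a phosphotyrosine-binding SH2 domain. ATP4A is the catalytic subunit of the gastric proton-potassium pump. LSM1 is the subunit that marks the cytoplasmic LSM ring, which binds the end of deadenylated mRNA and promotes its decapping, and RNF141 is a RING finger protein of the kind that acts in ubiquitin transfer. CCL14 is a CC chemokine, a ligand of CCR1 that is scavenged by ACKR2. ALDH1L2 is the mitochondrial formyltetrahydrofolate dehydrogenase of one-carbon metabolism, and C4orf33 is an open reading frame of unsettled function.

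Between 12.84 M and 31.88 M reads were counted per library (median 19.26 M). Markers of the tissue followed the labels in room air. The cortical glutamate transporter gene SLC17A7 averaged 749 CPM (counts scaled to library size) in the mPFC against 6.25 in the NTS, 57.7 in the VRC and 10.6 in the RTN. HOXA4, a hindbrain patterning gene, averaged 0.0337 CPM in the mPFC against 44.3, 34.4 and 8.46 CPM. All 8 genes passed the filter on low counts in every fit. Per length, in the deposited RPKM, the room air mPFC means fell into 3 tiers. RNF141 (72.7) and LSM1 (64.2) were the most abundant, CCL14 (14.0), ALDH1L2 (3.13) and C4orf33 (1.29) were intermediate, and TBX19 (0.485), SH2D4B (0.186) and ATP4A (0.174) were scarce. This order is uncertain, since for 89.7% of genes the length in the file exceeds the span from the given start to the given end. By CPM, not scaled to length, CCL14 (3.84) lay below ALDH1L2 (8.94) and C4orf33 (6.24). The scarce genes rested on few reads, down to 0 counts of SH2D4B in room air replicate 2 of the VRC, where 3 counts would have been 0.168 CPM. CCL14, short in the file, also rested on few reads, from 9 to 195 counts per library.

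**Figure D1:**
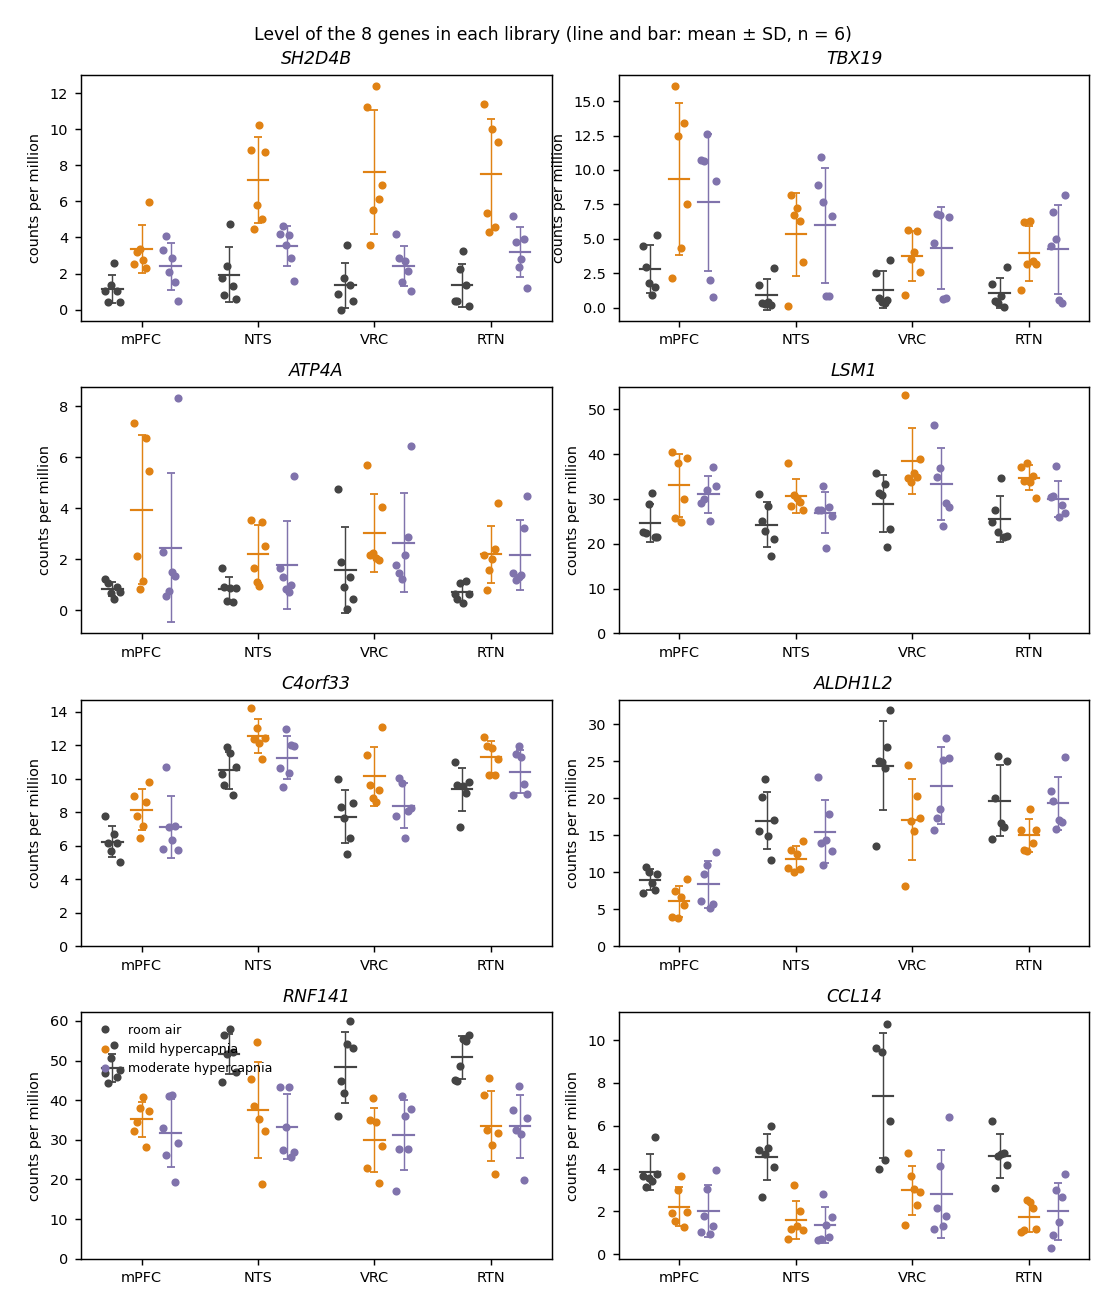
Level of each gene in CPM (y axis) in all 72 libraries, by region (x axis) and condition (colour), with the mean and SD of the 6 libraries of a group as line and bar. SH2D4B, TBX19 and ATP4A sit low in room air and higher under hypercapnia with wide spread, RNF141 and CCL14 sit lower under both hypercapnia conditions, and ALDH1L2 has a lower mean under mild hypercapnia, with the moderate libraries among those of room air.

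SH2D4B had the highest fold under mild hypercapnia in the VRC and the RTN among the 8 genes. In the VRC it ran from 0 to 3.59 CPM in room air (median 1.12), from 3.60 to 12.4 CPM under mild hypercapnia (median 6.49) and from 1.06 to 4.18 CPM under moderate hypercapnia (median 2.41). In the RTN the room air libraries lay between 0.178 and 3.26 CPM (median 0.945), the mild libraries between 4.29 and 11.4 (median 7.31) and the moderate libraries between 1.22 and 5.16 (median 3.27). Every mild library thus lay above every room air library in both regions, in the VRC by the narrow margin of 3.60 against 3.59 CPM. The share of all genes tested with such a complete separation upward was 0.157% in the VRC and 0.182% in the RTN. NTS values were 0.601 to 4.76 CPM in room air (median 1.52), 4.45 to 10.2 under mild (median 7.28) and 1.61 to 4.66 under moderate hypercapnia (median 3.88). In the mPFC they were 0.416 to 2.56 (median 1.04), 2.31 to 5.97 (median 2.98) and 0.489 to 4.10 CPM (median 2.48). Mild and room air libraries overlapped in those regions, and in all 4 regions the moderate group overlapped both of the others. The log2 fold change of mild against room air was 1.55 ± 0.46 (SE) in the mPFC, 1.89 ± 0.40 in the NTS, 2.49 ± 0.55 in the VRC and 2.45 ± 0.49 in the RTN. For moderate hypercapnia it was 1.07 ± 0.46, 0.86 ± 0.40, 0.83 ± 0.54 and 1.24 ± 0.49 in the same order. The moderate group was below the mild group by mean in each region, with log2 differences of -0.48 ± 0.44, -1.03 ± 0.39, -1.66 ± 0.52 and -1.21 ± 0.46. Room air replicate 4 held the highest room air value in every region. Without it the VRC log2 fold changes were 3.08 for mild and 1.41 for moderate hypercapnia.

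SH2D4A, the closest relative of SH2D4B, averaged at most 0.131 CPM in any group. Of the 11 other SH2 adaptor genes listed, 10 were in the table and 5 to 8 passed the filter, none passed an adjusted p of 0.05 in edgeR in any of the 8 contrasts with room air, and the median log2 fold change of the list lay between -0.15 and 0.15. The median over all genes tested lay between -0.01 and 0.01 in these contrasts. Of all genes tested edgeR called 0.0% at this threshold, or 0.00649% for moderate hypercapnia in the NTS. The absence of calls in a list therefore does not set it apart from other genes. The same background holds for the lists that follow.

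TBX19 was high under both hypercapnia conditions, but in most and not all of their libraries. In the NTS it ran from 0.161 to 2.87 CPM in room air (median 0.367), from 0.110 to 8.21 under mild (median 6.51) and from 0.832 to 10.9 under moderate hypercapnia (median 7.16). In the mPFC the ranges were 0.920 to 5.30 CPM (median 2.39), 2.13 to 16.1 (median 10.01) and 0.750 to 12.6 (median 9.90). The VRC gave 0.317 to 3.44 CPM (median 0.612), 0.923 to 5.65 (median 3.78) and 0.601 to 6.80 (median 5.65), and the RTN gave 0.0447 to 2.96 (median 0.681), 1.29 to 6.32 (median 3.29) and 0.332 to 8.15 (median 4.72). The groups overlapped in every region. A few hypercapnia libraries lay low, and room air replicates 6 and 1 lay above the other room air libraries. Log2 fold changes of mild against room air were 1.73 ± 0.61 in the mPFC, 2.52 ± 0.80 in the NTS, 1.51 ± 0.65 in the VRC and 1.88 ± 0.71 in the RTN. Those of moderate hypercapnia were 1.45 ± 0.60, 2.68 ± 0.81, 1.73 ± 0.65 and 2.00 ± 0.71, within an SE of the mild values in each region. Without room air replicate 6 the NTS values were 3.33 for mild and 3.49 for moderate hypercapnia. The moderate minus mild difference was between -0.28 ± 0.58 (mPFC) and 0.21 ± 0.61 (VRC).

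POMC, the target of TBX19 in corticotrophs, averaged 7.60 CPM in room air, 8.05 under mild and 9.09 under moderate hypercapnia in the mPFC, with log2 fold changes of 0.09 and 0.28. In the 3 brainstem regions its log2 fold changes ran from -0.28 to 0.06, none past an adjusted p of 0.05 in edgeR. Other markers of pituitary tissue, the usual site of TBX19, were at 0 in most libraries: GH1 and TSHB in 70 of the 72, CGA in 56, FSHB in 53 and PITX1 in 52. FSHB reached 8.33 CPM in its highest library. The summed pituitary markers, POMC included, ran from 6.40 to 11.4 CPM in room air and from 5.93 to 19.7 under moderate hypercapnia in the mPFC; their part in the TBX19 values was not tested. The list of T-box genes, POMC and its regulators had 16 of 18 genes in the table, 10 to 11 of which passed the filter in a region. None of them passed the adjusted threshold, and the list medians ran from -0.19 to 0.34.

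ATP4A, at about 1 CPM in room air, was higher by mean under both hypercapnia conditions in all regions. In room air it ran from 0.460 to 1.22 CPM in the mPFC (median 0.814), 0.323 to 1.67 in the NTS (median 0.870), 0.0528 to 4.74 in the VRC (median 1.13) and 0.286 to 1.16 in the RTN (median 0.639). Under mild hypercapnia the ranges were 0.820 to 7.33 (median 3.81), 0.953 to 3.53 (median 2.09), 1.97 to 5.68 (median 2.23) and 0.786 to 4.19 CPM (median 2.08). Under moderate hypercapnia they were 0.556 to 8.31 (median 1.43), 0.728 to 5.25 (median 1.14), 1.23 to 6.45 (median 1.96) and 1.17 to 4.48 (median 1.44). The moderate RTN group alone lay wholly above its room air group, a separation seen in 0.28% of the genes tested there. Log2 fold changes of mild against room air were 2.20 ± 0.64, 1.41 ± 0.51, 0.98 ± 0.59 and 1.60 ± 0.44 in the mPFC, NTS, VRC and RTN, and those of moderate hypercapnia were 1.59 ± 0.64, 1.09 ± 0.51, 0.81 ± 0.59 and 1.59 ± 0.43. The moderate values leaned on 1 replicate number. Moderate replicate 6 was the highest ATP4A library of its group in all 4 regions, and without it the log2 fold changes were 0.64 in the mPFC, 0.41 in the NTS, 0.31 in the VRC and 1.24 in the RTN. Room air replicate 1 held the 4.74 CPM of the VRC, and without it the VRC values were 1.70 for mild and 1.52 for moderate hypercapnia.

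ATP4B, the beta subunit that the gastric pump requires, averaged at most 0.142 CPM in any of the 12 groups. ATP12A, the nongastric proton pump subunit, averaged 5.46 CPM in the room air mPFC and 6.17 and 4.83 CPM there under mild and moderate hypercapnia, and at most 0.521 CPM in any brainstem group. Among the sodium and proton pump genes listed, 8 of 13 were in the table and 6 or 7 passed the filter, none passed the adjusted threshold in a contrast with room air, and list medians ran from -0.07 to 0.12.

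LSM1 and C4orf33 shifted upward by small amounts with little spread. LSM1 averaged 24.7 ± 4.22 CPM (SD, n = 6) in room air, 33.0 ± 7.02 under mild and 31.0 ± 4.05 under moderate hypercapnia in the mPFC, and 24.3 ± 5.04, 30.7 ± 3.81 and 26.9 ± 4.52 in the NTS. VRC means were 29.0 ± 6.34, 38.5 ± 7.38 and 33.3 ± 7.99 CPM, and RTN means were 25.5 ± 5.07, 34.7 ± 2.81 and 30.0 ± 4.03. The order room air, moderate, mild by mean was the same in each region, while the ranges overlapped throughout. Its log2 fold changes were 0.42 ± 0.14, 0.34 ± 0.14, 0.42 ± 0.17 and 0.45 ± 0.12 under mild and 0.35 ± 0.14, 0.14 ± 0.14, 0.21 ± 0.17 and 0.24 ± 0.12 under moderate hypercapnia. C4orf33 showed the same order of means. They were 6.24 ± 0.927, 8.14 ± 1.22 and 7.14 ± 1.85 CPM in room air, mild and moderate hypercapnia in the mPFC, and 10.5 ± 1.10, 12.6 ± 1.02 and 11.3 ± 1.29 in the NTS. The VRC gave 7.73 ± 1.59, 10.1 ± 1.77 and 8.38 ± 1.33 CPM and the RTN 9.37 ± 1.27, 11.3 ± 0.947 and 10.4 ± 1.30. Log2 fold changes of C4orf33 were 0.38 ± 0.16, 0.26 ± 0.11, 0.40 ± 0.16 and 0.27 ± 0.11 under mild hypercapnia, and 0.21 ± 0.17, 0.09 ± 0.11, 0.12 ± 0.16 and 0.15 ± 0.11 under moderate hypercapnia.

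Among the other LSM genes measured, LSM2, LSM3, LSM6, LSM7 and LSM8 lay above room air under mild hypercapnia in 3 regions and below it in the NTS. Their log2 fold changes were 0.19, 0.43, 0.29, 0.28 and 0.33 in the mPFC, 0.18, 0.29, 0.10, 0.24 and 0.36 in the VRC, and 0.21, 0.22, 0.21, 0.14 and 0.25 in the RTN. In the NTS they were -0.11, -0.15, -0.20, -0.19 and -0.24, where LSM1 had 0.34. Under moderate hypercapnia in the NTS LSM2, LSM3, LSM6, LSM7 and LSM8 had -0.24, -0.59, -0.49, -0.42 and -0.55 beside 0.14 for LSM1. In the RTN they had -0.01, -0.32, -0.14, -0.23 and -0.17 beside 0.24 for LSM1. VRC values were 0.02, -0.24, -0.21, -0.02 and -0.05 beside 0.21, and mPFC values were 0.19, -0.07, 0.11, 0.29 and 0.08 beside 0.35. LSM4, at 84.9 to 99.3 CPM by group mean, stayed between 0.01 and 0.08. None of the 15 LSM and decapping genes in the table, of 17 listed, passed the adjusted threshold, and their median ran from -0.07 to 0.09.

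RNF141 was the most abundant of the genes that were lower under hypercapnia, and its room air libraries kept close together except in the VRC. In the mPFC it ran from 44.4 to 53.9 CPM in room air (median 47.2), from 28.2 to 40.8 under mild (median 35.9) and from 19.3 to 41.4 under moderate hypercapnia (median 31.1). In the RTN the ranges were 44.7 to 56.5 (median 51.8), 21.3 to 45.7 (median 32.0) and 19.8 to 43.6 CPM (median 34.1). NTS values were 44.7 to 57.8 CPM (median 51.8), 18.9 to 54.7 (median 36.9) and 25.6 to 43.3 (median 30.2), and VRC values were 36.0 to 60.0 (median 49.0), 19.2 to 40.5 (median 31.5) and 17.1 to 41.0 (median 31.9). All moderate libraries lay below all room air libraries in the mPFC, the NTS and the RTN, and all mild libraries did so in the mPFC. Complete separation downward was found for 0.0779%, 0.253% and 0.15% of genes in those 3 moderate contrasts and for 0.0454% in the mild mPFC contrast. The log2 fold changes were alike: -0.45 ± 0.15, -0.46 ± 0.19, -0.67 ± 0.21 and -0.60 ± 0.17 under mild hypercapnia, and -0.59 ± 0.15, -0.64 ± 0.19, -0.62 ± 0.21 and -0.61 ± 0.17 under moderate hypercapnia. Of 14 other RING finger genes listed 11 were in the table and tested, none passed the adjusted threshold, and their medians lay between -0.08 and 0.06.

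CCL14 was lower under both conditions, more so by its fold in the brainstem than in the cortex. In the NTS it ran from 2.69 to 5.97 CPM in room air (median 4.77), from 0.718 to 3.22 under mild (median 1.26) and from 0.678 to 2.81 under moderate hypercapnia (median 1.08). In the RTN the ranges were 3.09 to 6.22 (median 4.65), 1.05 to 2.51 (median 1.67) and 0.310 to 3.77 CPM (median 2.07). The VRC, where room air was highest, gave 3.98 to 10.8 CPM (median 7.84), 1.35 to 4.73 (median 2.97) and 1.18 to 6.40 (median 1.97), and the mPFC gave 3.14 to 5.48 (median 3.62), 1.26 to 3.67 (median 1.94) and 0.967 to 3.95 (median 1.57). Only in the mild RTN group did every library lie below every room air library, as 0.13% of the genes tested there did. Log2 fold changes were -0.77 ± 0.34, -1.51 ± 0.37, -1.29 ± 0.39 and -1.39 ± 0.41 under mild and -0.90 ± 0.35, -1.76 ± 0.38, -1.37 ± 0.39 and -1.19 ± 0.41 under moderate hypercapnia. Whether the mPFC differed from the brainstem in this shift was not tested.

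ACKR1, a chemokine-binding decoy receptor of venules, had log2 fold changes from -0.01 to 0.73. The list of chemokines and their receptors had 15 of 23 genes in the table and 9 to 11 that passed the filter, with none past the adjusted threshold. Its median was -0.58 under moderate hypercapnia in the NTS and 0.44 under mild hypercapnia in the VRC.

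ALDH1L2 was lower under mild hypercapnia and near room air under moderate hypercapnia. In the mPFC the means were 8.94 ± 1.43 CPM (SD, n = 6) in room air, 6.06 ± 2.08 under mild and 8.36 ± 3.18 under moderate hypercapnia, and in the NTS 17.0 ± 3.90, 11.8 ± 1.70 and 15.5 ± 4.29. VRC means were 24.4 ± 6.01, 17.1 ± 5.44 and 21.7 ± 5.18 CPM, and RTN means were 19.7 ± 4.80, 14.9 ± 2.18 and 19.3 ± 3.62. Mild libraries overlapped room air libraries in every region. The log2 fold changes were -0.57 ± 0.25, -0.52 ± 0.18, -0.50 ± 0.23 and -0.40 ± 0.16 under mild hypercapnia. They were -0.07 ± 0.25, -0.14 ± 0.18, -0.16 ± 0.22 and -0.03 ± 0.16 under moderate hypercapnia, each smaller than its SE, and without single libraries they reached 0.0358 in the mPFC (moderate replicate 4) and 0.0641 in the RTN (room air replicate 3). Moderate minus mild was between 0.34 ± 0.23 (VRC) and 0.49 ± 0.25 (mPFC).

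The cytosolic relative ALDH1L1, an astrocyte gene, had log2 fold changes from -0.24 to 0.13 under mild hypercapnia and from -0.03 to 0.45 under moderate hypercapnia. SHMT2, which feeds the mitochondrial one-carbon pool from serine, stayed between -0.03 and 0.26, and MTHFD2, which acts on the same folates in mitochondria, between -0.10 and 0.53. All 12 measured genes of the one-carbon and serine list (of 14) were tested, none passed the adjusted threshold, and the list medians ran from -0.11 to 0.11. For the 15 measured genes of the ATF4 stress response (of 16), which can induce this pathway, the medians ran from -0.06 to 0.10, also with none past the threshold.

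**Figure D2:**
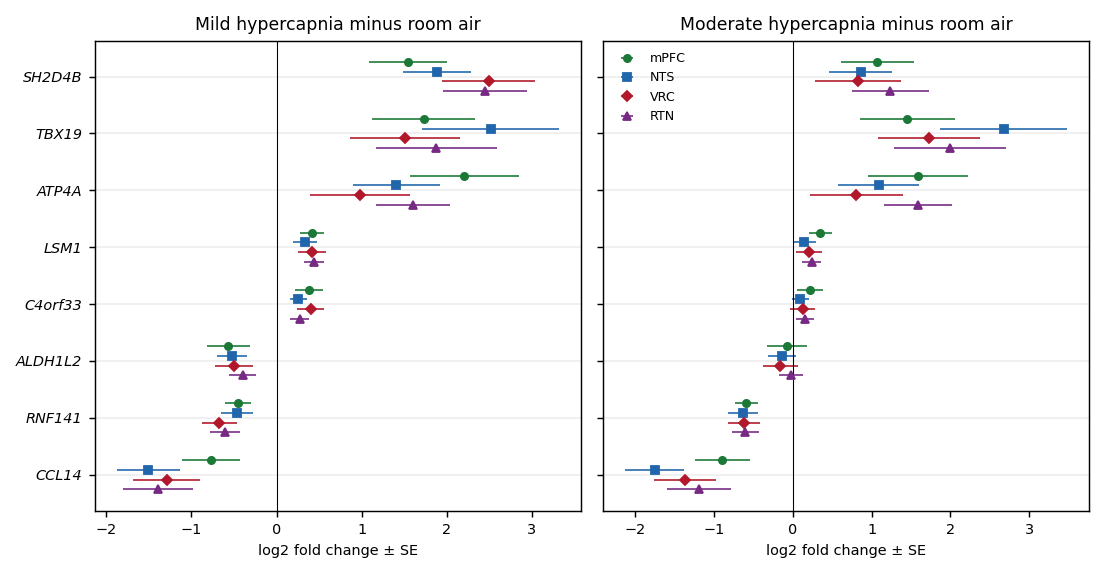
Log2 fold change of mild (left) and moderate (right) hypercapnia against room air (x axis, bars are the SE) for each gene (y axis) and region (marker), from edgeR fits of 18 libraries per region. All points of a gene lie on one side of 0, which is how the genes were chosen. For ALDH1L2 the moderate points, from -0.16 to -0.03, lie next to 0.

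The selection can be set against the whole table. Of 14741 genes tested in all 4 regions, 3572 (24.2%) had 1 sign in all 4 under mild hypercapnia and 3308 (22.4%) under moderate hypercapnia. All 8 genes were among both sets. The regions of a condition came from the same 6 animals per the series description, so the 4 contrasts are not independent. An unadjusted p below 0.05 in edgeR in all 4 regions with 1 sign was met by 21 genes under mild hypercapnia, of which 14 have a symbol. These are SH2D4B, TBX19, LSM1, C4orf33, RNF141, CCL14 and ALDH1L2 together with ACVRL1, APOLD1, DLL4, NOTCH1, ELOVL2, MS4A7 and NINJ2. ATP4A missed it in the VRC, where its log2 fold change was 0.98 ± 0.59. Under moderate hypercapnia 28 genes met it, 13 of them with a symbol, among them CCL14, RNF141 and TBX19.

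Per contrast, the share of all genes with an unadjusted p below 0.05 in edgeR was 3.45% for mild hypercapnia in the mPFC, 4.66% in the NTS, 6.23% in the VRC and 6.59% in the RTN, with 8, 8, 7 and 8 of the 8 genes included. For moderate hypercapnia it was 2.1%, 13.4%, 5.67% and 7.38%, with 6, 5, 3 and 5 of the 8 included. These counts follow from the selection. At an adjusted p below 0.05 edgeR called 0.0% of genes for mild hypercapnia in the mPFC, 0.0% in the NTS, 0.0% in the VRC and 0.0% in the RTN. For moderate hypercapnia it called 0.0% in the mPFC, 0.00649% in the NTS, 0.0% in the VRC and 0.0% in the RTN. The 1 gene called in the NTS, named here after its value was seen, was THSD1, with a log2 fold change of -0.78 ± 0.12 (adjusted p = 0.0458 in edgeR). The count in that contrast was 0 with a replicate block and with the 2 groups alone, and it was 0 or 2 in each of the 12 fits with 1 library left out. None of the 8 genes was among the calls of edgeR. At the same threshold DESeq2 called 0.013%, 0.0324%, 0.17% and 0.0978% of genes for mild hypercapnia in the mPFC, NTS, VRC and RTN, with SH2D4B included in the latter 3. For moderate hypercapnia it called 0.0%, 0.123%, 0.0654% and 0.15%, with CCL14 included in the NTS. The other 6 genes were in none of these calls. The selection used these contrasts.

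The selection did not use the differences between regions in room air, which were tested on the 24 room air libraries. ALDH1L2, C4orf33 and CCL14 differed among the 4 regions, with adjusted p of 6.11e-06, 0.000246 and 0.00681 in edgeR's quasi-likelihood test. Among all genes tested 69.2% differed at an adjusted p below 0.05, so 3 of 8 is not a high share. ALDH1L2 rose in the order mPFC (8.94 CPM), NTS (17.0), RTN (19.7) and VRC (24.4). Each brainstem region exceeded the mPFC, by log2 differences of 0.90 ± 0.19, 1.14 ± 0.19 and 1.41 ± 0.19, and the VRC exceeded the NTS by 0.50 ± 0.19 (adjusted p = 0.0386 in edgeR). Its neighbours NTS and RTN, and RTN and VRC, missed the adjusted threshold (adjusted p = 0.403 and 0.351 in edgeR). C4orf33 followed another order, mPFC (6.24 CPM), VRC (7.73), RTN (9.37) and NTS (10.5). The NTS and the RTN exceeded the mPFC by 0.73 ± 0.14 and 0.59 ± 0.14, and the VRC lay 0.47 below the NTS (a log2 difference of -0.47 ± 0.14, adjusted p = 0.0115 in edgeR). Its neighbours missed the adjusted threshold: the log2 difference was 0.27 ± 0.14 for VRC minus mPFC (adjusted p = 0.10 in edgeR), 0.32 ± 0.14 for RTN minus VRC (0.123) and -0.14 ± 0.14 for RTN minus NTS (0.496).

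CCL14 was highest in the VRC, at 7.41 ± 2.92 CPM against 3.84 ± 0.831 in the mPFC, 4.54 ± 1.10 in the NTS and 4.58 ± 1.01 in the RTN (SD, n = 6). The VRC exceeded the mPFC by a log2 difference of 0.91 ± 0.24 and the NTS by 0.68 ± 0.23 (adjusted p = 0.00193 and 0.0271 in edgeR), and the test against the RTN gave an adjusted p of 0.0670. Without room air replicate 3 in every region the adjusted p of CCL14 over the 4 regions was 0.0625. For single pairs of regions the share of all genes past the adjusted threshold was 48.3% for NTS against mPFC, where 2 of the 8 genes passed, 60.3% for VRC against mPFC (2 genes) and 54.8% for RTN against mPFC (2 genes). It was 33.0% for VRC against NTS, where ALDH1L2, CCL14 and C4orf33 all passed. SH2D4B, ATP4A, LSM1 and RNF141 gave adjusted p from 0.286 to 0.757 over the 4 regions. TBX19 had an adjusted p of 0.160, with a mean of 2.83 ± 1.75 CPM in the mPFC against 0.947 ± 1.10 in the NTS, 1.31 ± 1.33 in the VRC and 1.08 ± 1.09 in the RTN. With a replicate block its adjusted p was 0.000124 in edgeR, and without room air replicate 6 it was 0.0419.

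**Figure D3:**
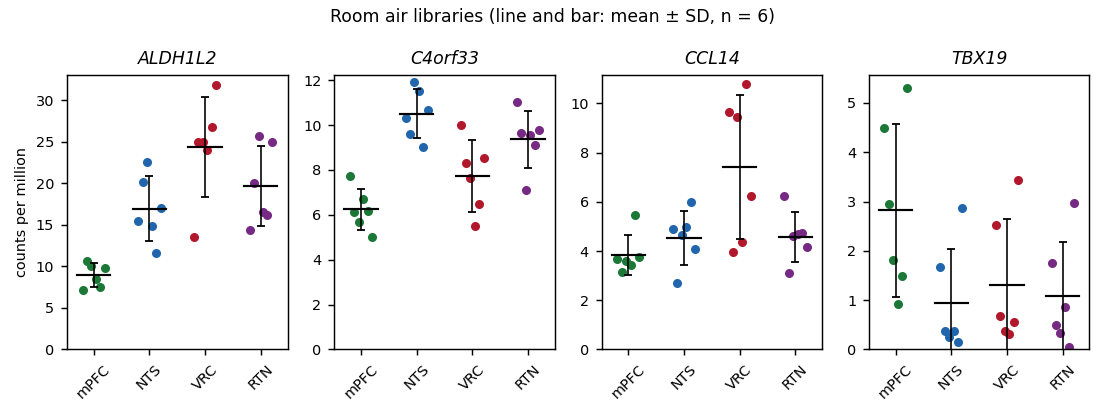
Level in CPM (y axis) of ALDH1L2, C4orf33, CCL14 and TBX19 in the 6 room air libraries of each region (x axis), with mean and SD. ALDH1L2 rises from 8.94 CPM in the mPFC to 24.4 in the VRC, CCL14 stands highest in the VRC, and the TBX19 libraries of a region spread widely.

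The libraries were also compared by replicate number, to ask how far libraries of a condition that carry the same replicate number resembled each other over the 4 regions. A selection for one direction in all 4 regions can favour genes whose deviations are shared over regions, so these shares describe the 8 genes and are not independent of how they were chosen. Within a region and condition 25.0% of the degrees of freedom go with the number, and for the median gene 37.5% of the squared deviations did. TBX19 stood at 88.1%, SH2D4B at 79.3%, CCL14 at 71.1%, LSM1 at 65.0%, ATP4A at 62.9% and RNF141 at 60.3%. C4orf33, at 40.6%, and ALDH1L2, at 40.3%, were near the median gene. The numbers differed past an adjusted p of 0.05 in edgeR for 34.7% of all genes and for 6 of the 8. Whether same-numbered libraries of a condition came from 1 animal is not stated in the labels.

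**Figure D4:**
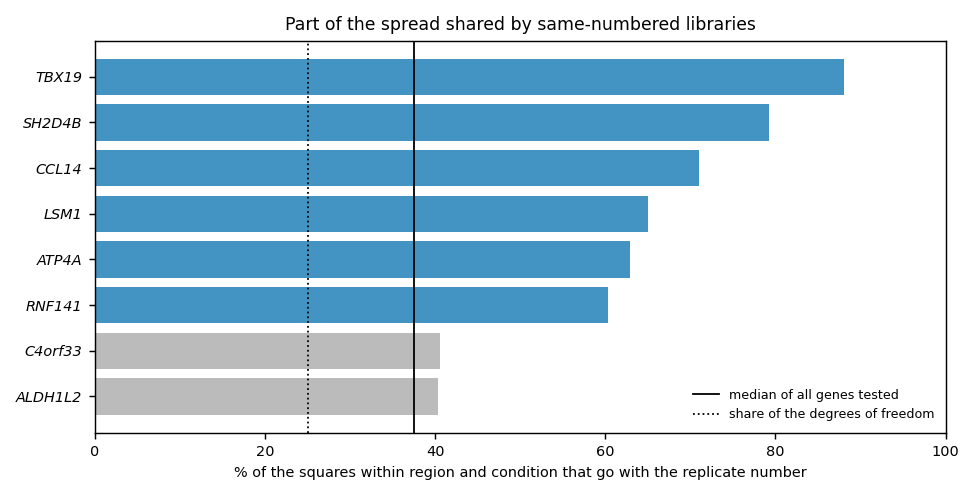
Percent of the squared deviations within region and condition that goes with the replicate number (x axis) for each gene (y axis), in blue where the adjusted p of edgeR was below 0.05. The solid line is the median of all genes tested (37.5%) and the dotted line the share of the degrees of freedom (25.0%); 6 genes lie at 60.3% or more.

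The TBX19 values split by replicate number. As geometric means over the 4 regions, room air replicates 6 and 1 stood at 3.64 and 2.51 CPM and the other 4 between 0.451 and 0.908. Mild replicate 1 stood at 0.911 CPM and the other 5 between 3.89 and 8.38. Moderate replicates 4 and 5 stood at 0.972 and 0.734 CPM and the other 4 between 6.80 and 8.71. So 9 of the 12 hypercapnia numbers lay above every room air number, and the remaining 3 lay between 0.734 and 0.972 CPM, next to the 4 low room air numbers. Mild replicate 1 was the lowest of its group in all 4 regions, and room air replicate 6 was the highest of its group in all 4.

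SH2D4B ran from 0.420 to 3.56 CPM by number in room air, from 4.18 to 7.82 under mild and from 1.12 to 4.26 under moderate hypercapnia. The mild numbers did not overlap the room air numbers, as was so, upward, for 0.0977% of genes, and 2 of 6 moderate numbers were above all room air numbers. CCL14 ran from 3.30 to 6.50 CPM in room air, from 1.29 to 3.17 under mild and from 0.826 to 3.71 under moderate hypercapnia. All 6 mild numbers lay below room air, as for 0.116% of genes, and 4 of 6 moderate numbers did. The RNF141 numbers ran from 43.0 to 55.4 CPM, from 21.7 to 44.4 and from 22.9 to 39.6. All 6 moderate numbers lay below room air, as for 0.153% of genes, and so did 5 of the 6 mild numbers. For ATP4A moderate replicate 6 stood at 6.06 CPM, with the other 5 between 1.11 and 1.99, and 6 of the 12 hypercapnia numbers lay above all of room air. These separations use the contrasts of the selection and are descriptions.

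**Figure D5:**
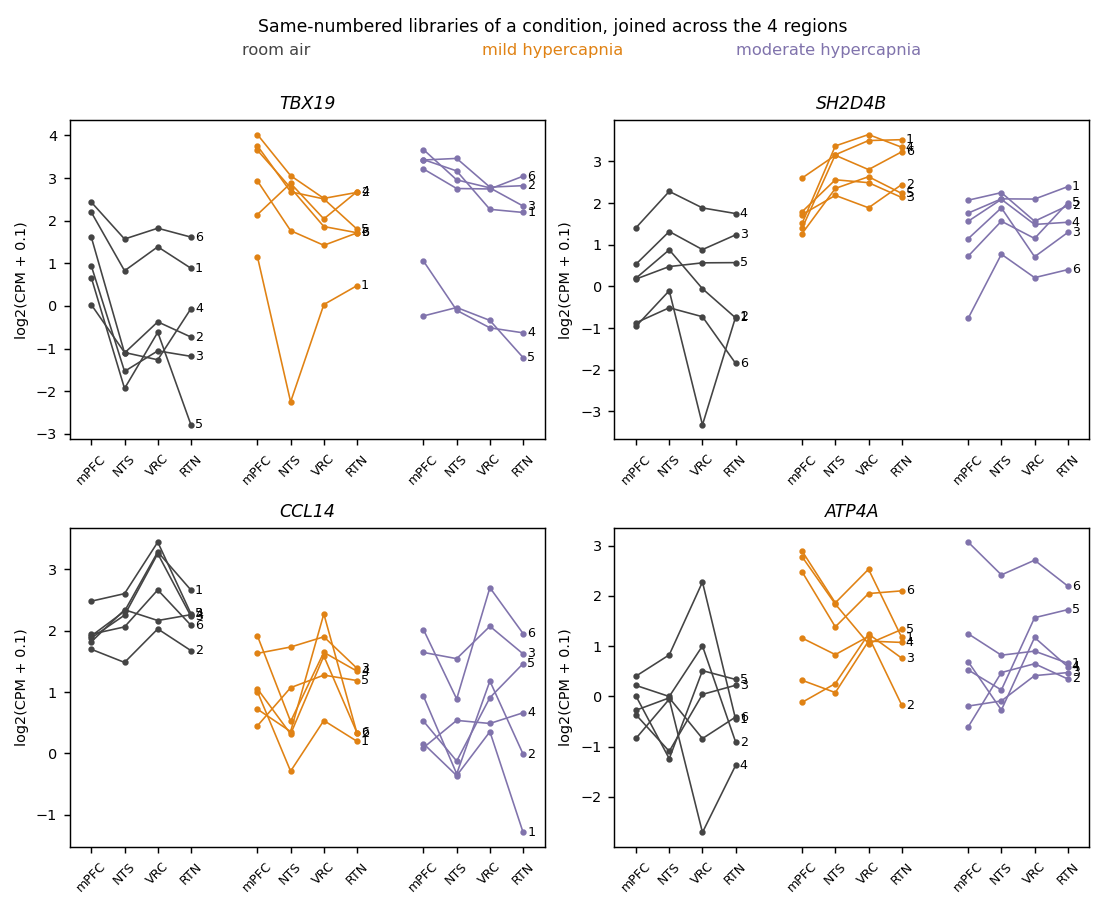
Level as log2 of CPM plus 0.1 (y axis) of TBX19, SH2D4B, CCL14 and ATP4A by region (x axis), with libraries of 1 condition and replicate number joined by a line and marked with that number. For TBX19 room air replicates 1 and 6 run above the other room air lines, and moderate replicates 4 and 5 and mild replicate 1 run below the others of their condition. Moderate replicate 6 runs on top for ATP4A.

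The 8 genes were also followed over the 72 libraries against each other and against 12033 genes of at least 1 CPM, after removing the mean of each region. Correlations here hold the shift between conditions and the shared replicate numbers and are descriptions. The closest pairs among the 8 were RNF141 with CCL14 (Pearson r = 0.56), SH2D4B with LSM1 (0.55) and LSM1 with C4orf33 (0.54). The most opposed were SH2D4B with CCL14 (-0.54), ALDH1L2 with LSM1 (-0.52) and RNF141 with ATP4A (-0.52), and TBX19 was the least tied to the others, with r from -0.36 to 0.32. Outside the set, the most alike genes of SH2D4B were COL6A3 (0.63) and MS4A7 (0.59), a macrophage gene. TBX19 was closest to AGFG2 (0.62), CREG1 (0.56), which lies on the same chromosome 3, and ADAP2 (0.54). APOLD1, an endothelial gene, was the closest gene to RNF141 (0.62), followed by HOOK3 (0.60) and KAT6B (0.59). It was also close to CCL14 (0.57), beside ASIP (0.57) and ITPR2 (0.57). For SH2D4B, APOLD1 was the most opposed of the 12033 genes (-0.67). LSM1 was closest to RAC3 (0.71), BOLA1 (0.67) and NDUFA5 (0.67), and C4orf33 to DMAC2L (0.56) and DCXR (0.56). ATP4A was closest to ZNF699 (0.54), DHRS13 (0.53) and IL20RB (0.48), and ALDH1L2 to SASH1, FNBP1 and LRRC58 (0.59 each). CREG1 was the only one of these genes on the chromosome of its partner.

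In bulk tissue fewer cells of a type and less RNA per cell cannot be told apart, so the summed levels of cell type markers are given beside these shifts. All 10 measured endothelial markers (of 11) were above 0 in every group. Their sum ran from 586 to 913 CPM in room air, 576 to 1062 under mild and 523 to 829 under moderate hypercapnia in the VRC, from 429 to 638, 454 to 665 and 450 to 1017 in the RTN, and from 327 to 460, 258 to 656 and 368 to 673 in the mPFC. In the NTS it ran from 418 to 622, 316 to 581 and 343 to 466 CPM. CCL14 and RNF141 had lower medians under both conditions in all 4 regions. The median log2 fold change of the endothelial markers in the mPFC, NTS, VRC and RTN was 0.05, -0.06, 0.10 and 0.24 under mild hypercapnia. Under moderate hypercapnia it was 0.08, -0.12, -0.11 and 0.31. In the RTN 9 of the 10 endothelial markers lay above room air under each condition. Pericyte and smooth muscle markers, all 9 measured, had medians of -0.32, -0.17, -0.07 and -0.13 under mild hypercapnia in the same order. Their medians were -0.09, -0.10, -0.08 and -0.13 under moderate hypercapnia. Of these 9, at most 4 lay above room air in a contrast, and 0 did under mild hypercapnia in the mPFC. The 11 measured microglia and macrophage markers (of 12) summed to 257 to 611 CPM in room air and 392 to 769 under mild hypercapnia in the VRC, and to 266 to 605 and 418 to 579 in the RTN. Their median log2 fold change in the mPFC, NTS, VRC and RTN was 0.13, 0.26, 0.43 and 0.43 under mild hypercapnia. Under moderate hypercapnia it was 0.39, 0.10, -0.17 and -0.06. All 10 tested in the VRC and in the RTN lay above room air under mild hypercapnia. The moderate minus mild medians there were -0.60 and -0.46. Leukocyte markers, all 9 measured, summed in the VRC to 24.1 to 35.9 CPM in room air (median 29.7) and 27.7 to 132 under mild hypercapnia (median 36.5). Their median log2 fold change in the mPFC, NTS, VRC and RTN was -0.19, 0.40, 1.08 and 0.47 under mild hypercapnia. Under moderate hypercapnia it was 0.23, -0.45, 0.04 and -0.04. Oligodendrocyte markers, 9 measured of 10, summed to 7659 to 35868 CPM in room air and 3901 to 14767 under moderate hypercapnia in the NTS. The median sums in the mPFC, NTS, VRC and RTN were 3705, 15212, 43388 and 24961 CPM in room air. They were 4147, 8962, 49730 and 30113 under mild and 2075, 6895, 38072 and 28089 under moderate hypercapnia. Neuron markers, 8 measured, had median sums of 7055, 6975, 10266 and 22035 CPM in room air in the same order. Under mild hypercapnia these were 7095, 13400, 9706 and 22498, and under moderate hypercapnia 6435, 12064, 13452 and 25642. The NTS neuron sums overlapped, from 5251 to 16091 CPM in room air and from 4906 to 16208 under mild hypercapnia. None of these markers passed the adjusted threshold against room air in edgeR, which called 0.0% of all genes, or 0.00649% in the moderate NTS contrast. The part of these cell types in the shifts of the 8 genes was not tested.

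The 8 genes are spread over the goat genome, as the deposited table gives them: TBX19 on chromosome 3, ALDH1L2 on 5, RNF141 on 15, C4orf33 on 17, ATP4A on 18, CCL14 on 19, LSM1 on 27 and SH2D4B on 28. No 2 share a chromosome. Gene lengths in that table run from 285 bases for CCL14 and 402 for LSM1 to 6474 for SH2D4B. CCL14 belongs to a chemokine cluster of close relatives and ATP4A to a family of similar pumps, and how reads shared by near-identical genes were counted is not stated, so their levels carry that uncertainty.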

How the data were processed

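RNA was sequenced from 72 goat brain libraries. Tools listed in the submitters' processing notes are STAR, featureCounts, edgeR, FastQC and Trimmomatic. Genome build, annotation and versions: not given in the sources used here. The deposited table holds raw counts per gene made by the authors, the authors' RPKM values, and a gene length in bases (another unit of the deposited file). The library size implied by the deposited RPKM was 1.0047 to 1.0069 times the sum of the counts. Counts were tested with edgeR 4.0.16 (R 4.3.3), using its low-count filter with a minimum of 10, TMM factors and the quasi-likelihood test with Benjamini-Hochberg adjustment over all genes at 0.05. Fits used the 18 libraries of a region for hypercapnia against room air, the 24 room air libraries for regions, and all 72 with replicate numbers nested in condition. The SE of a log2 fold change was derived as its absolute value divided by the square root of the quasi-likelihood F. CPM use TMM factors of all 72 libraries. The depth per sample limits scarce genes by counting error alone. No pair of libraries of a group agreed within sampling noise (chi-square per degree of freedom 15.3 to 217). Where libraries are not separate animals, p-values measure only the spread between libraries.

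The genes and gene lists were chosen with earlier results of these data known. The text names the 8 genes, fixed relatives of each, any list gene called against room air, and for each gene the 3 genes with a symbol, at least 1 CPM and the highest correlation; for SH2D4B and C4orf33 the third was LSM1. Markers of oligodendrocytes, astrocytes, neurons, pericytes, ependyma, erythrocytes, meninges, cortex and hindbrain were also measured; none passed the adjusted threshold against room air. Alternatives were DESeq2 1.42.0, other size factors, no filter, a replicate block, each pair of groups alone, and leaving out each replicate. The fits were tested on simulated data. ASNS, LSM5 and CCR1 were not analysed here, and some genes of the lists are not reported here.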

Additional observations from a re-analysis of the deposited data

Results flagged for a closer look

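In 8 of the 96 groups of 6 libraries (8 genes, 4 regions, 3 conditions) 1 library stood apart from the rest by Dixon's criterion. Chance meets it in about 1 group in 20 where samples are independent and normally distributed. Same-numbered libraries tended to be alike over regions, so the 96 groups are not independent and the count cannot be set against that rate. ATP4A accounted for 3 of the 8 groups, each through moderate replicate 6. That replicate held 8.31 CPM in the mPFC where the next library had 2.27, 5.25 in the NTS with 1.66 next, and 6.45 in the VRC with 2.86 next. LSM1 stood high in mild replicate 1, at 38.1 CPM in the NTS with 30.9 next and 53.1 in the VRC with 38.9 next. SH2D4B reached 5.97 CPM in mild replicate 6 of the mPFC, with 3.36 next. CCL14 reached 5.48 CPM in room air replicate 5 of the mPFC, with 3.74 next. C4orf33 reached 10.7 CPM in moderate replicate 2 of the mPFC, with 7.18 next. No cause of these values was tested.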

How the results depend on the processing

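All 320 log2 fold changes of the 8 genes against room air under another tool, size factors, filter, pair of groups or replicate block kept their sign and stayed within the replicate spread. Of 768 with 1 library left out, 8 changed sign, all of ALDH1L2 under moderate hypercapnia, where they ran from -0.238 to 0.0358 in the mPFC and from -0.124 to 0.0641 in the RTN. Counts of genes called against room air depended on the tool. DESeq2 called 2 genes for mild hypercapnia in the mPFC, 5 in the NTS, 26 in the VRC and 15 in the RTN, and 0, 19, 10 and 23 for moderate hypercapnia, where edgeR called 0, 1, 0 and 0. The single gene of the moderate NTS contrast was lost with a replicate block (0 genes) and with the 2 groups alone (0 genes), while in the VRC the 2 groups alone gave 1 gene for mild and 1 for moderate hypercapnia. Leaving out 1 library gave 0 to 1 genes for mild hypercapnia in each region, and 0 to 2 in the NTS, 0 to 3 in the VRC and 0 to 1 in the RTN for moderate hypercapnia. The labels do not state that numbers pair libraries over regions. Of 108 pairs of 1 number and condition over regions 94 had deviations correlated above 0.1 (median r 0.26) and 0 below -0.1. Of 72 libraries 67 resembled their own number most, while 72 pairs of 1 number over conditions had a median r of 0.02. Same-numbered libraries of a condition thus tended to be alike over regions. With a replicate block in the room air comparison of regions 11808 genes were called against 10860, and TBX19 passed (adjusted p = 0.000124 in edgeR). Without the block the count ran from 9710 to 11209 with 1 replicate left out. The count of genes that differed among replicate numbers, 5686, was 7306 with DESeq2 and ran from 4709 to 6271 with 1 replicate left out. Over all libraries the fewest reads fell on ATP4A (2808), CCL14 (4246), SH2D4B (4829) and TBX19 (5743), so counting error weighs most on these.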
